A study of Homo sapiens with 3 samples.

Results

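Keratins are the intermediate filament proteins of epithelial cells. Each filament is built from pairs of a type I (acidic) and a type II (basic) keratin, and the pair in use is a long-standing guide to the kind of epithelium. KRT8 (type II) with KRT18 (type I) is the pair of simple epithelia and the only abundant pair of the normal hepatocyte, KRT7 and KRT19 are added in bile ducts and other ducts, and KRT5 with KRT14 marks the basal layer of stratified epithelia. The genes described here are 10 keratins of these classes, taken as every probe set that the platform annotation assigns to KRT5, KRT7, KRT8, KRT14, KRT17, KRT18, KRT19, KRT23, KRT80 or KRT81. Of the 10, 8 had a probe set with 1 gene symbol, 12 probe sets in all, out of 19775 genes and 54675 probe sets on each array. KRT17 and KRT81 were not named by that annotation and are not analysed here.

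The samples were 3 cultures labelled as HepG2, a human liver tumour line, with 1 expression array each. By their labels they stably carried an Hsp27 ORF vector (array labelled ORF), an Hsp27 shRNA vector (array labelled shRNA) or a control vector (array labelled control), and all had been grown in DMEM with fetal bovine serum. Sample titles add IRES2 for the ORF vector and EGFP for the control vector, the title of the shRNA sample says siRNA, and the labels do not say whether a stable line was 1 clone or a pool. HSPB1 encodes Hsp27, a small heat shock protein that the series' title ties to metastasis of liver cancer, and the arrays ask what differs when it is meant to be raised or lowered. With 1 array a group the differences below have no replicate check, no test was possible, and each sentence describes these arrays and not the conditions. ORF, shRNA and control below stand for the arrays so labelled.

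Values are log2 signals. A signal at or above the pooled median of all probe sets, 5.93, is called above the floor, and one at or above the pooled 75th percentile, 8.63, is called bright. HSPB1 itself read 13.11 on the array labelled ORF and 13.03 on shRNA, against 13.25 on control. The highest reading thus stood on control, and the ORF label was not borne out at the transcript part this probe set reads. For shRNA against control the log2 ratio of HSPB1 was -0.22. Probe sets of GAPDH, a glycolytic enzyme, ran from -0.41 to -0.10 there, so a lowering particular to HSPB1 was not shown either. Every direction below therefore rests on labels alone. The defining secreted proteins of hepatocytes were near or below the floor under the HepG2 label: ALB (albumin) read at most 4.88, TTR (transthyretin) at most 5.41, APOA1 (apolipoprotein A-I) at most 5.83 and AFP (alpha-fetoprotein) at most 6.25. None of the 17 hepatocyte markers named on the array was bright on all arrays, and 15 were below the floor on all 3.

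The 8 keratins were divided between bright genes and genes below the floor. KRT8, KRT18, KRT7 and KRT80 were bright on all 3 arrays, and KRT5, KRT14, KRT19 and KRT23 were below the floor on all 3, with no gene in between by its brightest probe set. That is 4 bright genes of 8 (50%), beside 7555 of 19775 genes (38.2%) bright on all arrays. The other 4 of 8 were below the floor on all arrays, beside 7110 of 19775 genes. Most genes were thus either bright or below the floor on all arrays, so having no gene in between does not set the keratins apart. The pattern thus holds the hepatocyte pair KRT8 and KRT18 together with KRT7, a keratin that normal hepatocytes lack, and without a reading above the floor for KRT19 or for the stratified pair KRT5 and KRT14. How bright a probe set reads also depends on how well its probes bind, so ranks below place a probe set within its array and do not compare amounts of different transcripts.

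**Figure D1:**
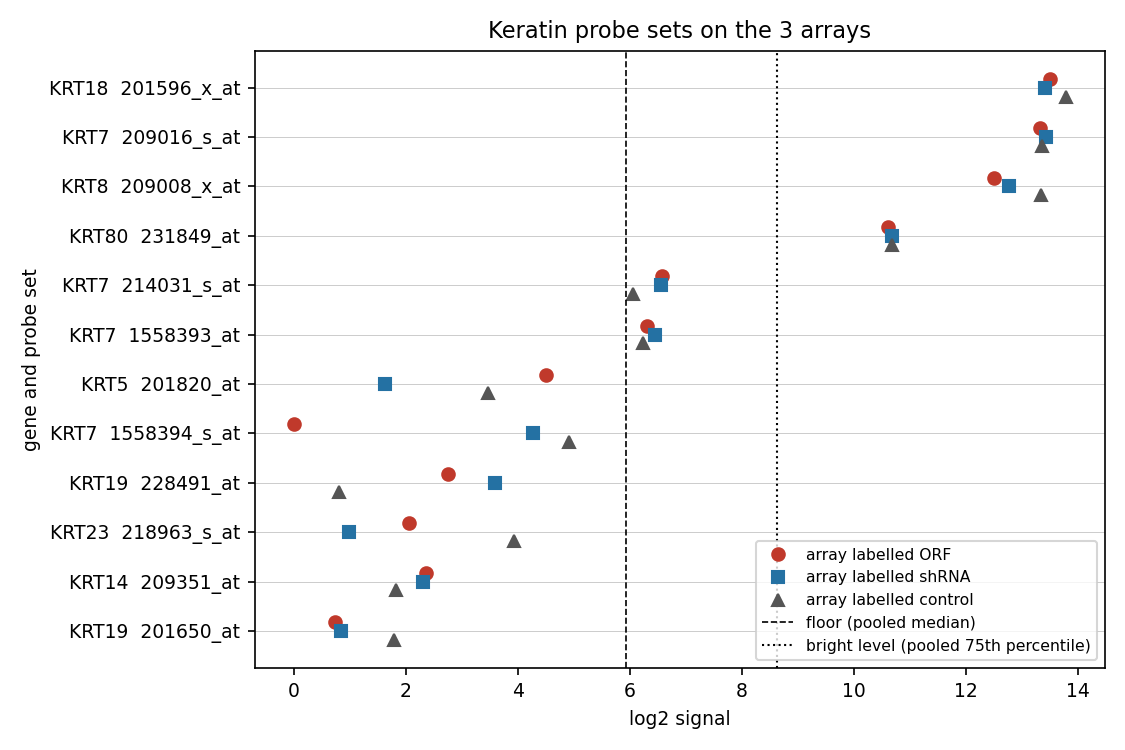
Log2 signal (horizontal axis) of the 12 keratin probe sets (rows, named by gene and probe set) on the arrays labelled ORF (circles), shRNA (squares) and control (triangles). The dashed line is the floor at 5.93 and the dotted line the bright level at 8.63. The brightest probe sets of KRT18, KRT7, KRT8 and KRT80 lie right of the dotted line on every array, and all probe sets of KRT5, KRT14, KRT19 and KRT23 lie left of the dashed line.

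KRT8, the type II keratin of simple epithelia, differed most between the arrays among the bright keratins. Its single probe set, 209008_x_at, read 12.50 on the array labelled ORF, 12.76 on shRNA and 13.34 on control (5809, 6934 and 10360 as linear signal). In rank order from the brightest it stood at 1703, 1376 and 821 of 54675 on these arrays. The control array was thus the high one and the array labelled ORF the low one. KRT8 was 1.78-fold lower on ORF than on control (log2 ratio -0.83) and 1.49-fold lower on shRNA than on control (-0.58), just short of 1.5-fold. ORF against shRNA gave -0.26. Probe-set noise, estimated as an SD from probe-set pairs of single genes at like signal, was 0.10, 0.14 and 0.12 for these ratios. It leaves out all variation between cultures.

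KRT8 was also low relative to genes of like brightness. Of 781 other bright genes within 0.5 of its mean log2 signal, 0 were as low or lower for ORF against control and 4 for shRNA against control, and their median ratios were -0.03 and -0.03. Over the whole range of brightness, 24 of 8097 bright genes, KRT8 counted, were at or below its ratio for ORF against control, and 121 of 8071 for shRNA against control. Both comparisons use the same control array, so they are not independent readings of KRT8. The probe set name ends in _x_at, which marks probes that can also match other transcripts, and KRT8 has many processed pseudogenes. Subtracting the median of the 130 other such probe sets of like signal left -0.80 for ORF against control and -0.55 for shRNA against control. The KRT8 pseudogene KRT8P12 had probe sets of its own, which read at most 7.81 and gave ratios of -0.12 and 0.02 for ORF against control. The share of pseudogene transcripts in the KRT8 signal was not tested.

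KRT18, the type I partner with which KRT8 forms filaments, lay in the same direction and by less. Its probe set read 13.50 on the array labelled ORF, 13.41 on shRNA and 13.78 on control, at ranks 680, 753 and 540. Control was again the highest of the arrays, while the arrays labelled ORF and shRNA differed by 0.09. KRT18 gave a log2 ratio of -0.28 for ORF against control (1.22-fold lower, noise SD 0.08) and of -0.37 for shRNA against control (1.29-fold lower, noise SD 0.11). Of 460 bright genes of like signal, 7 and 2 were as low or lower. This probe set is an _x_at one too, and the _x_at probe sets of the very bright genes ACTB (actin) and GAPDH (a glycolytic enzyme) were likewise highest on control. Their ratios ran from -0.27 to -0.17 for ORF against control and from -0.41 to -0.23 for shRNA against control. KRT18 lay just below the first range and inside the second, and KRT8 lay below both. The ACTB and GAPDH probe sets that are not _x_at ones were also highest on control, except AFFX-HSAC07/X00351_5_at of ACTB (0.08 and 0.16). The rest of them ran from -0.21 to -0.09 for ORF against control and from -0.22 to -0.10 for shRNA against control. Over all 135 other _x_at probe sets of like signal the median ratios were smaller, -0.05 for ORF against control and -0.08 for shRNA against control. Subtracting them left -0.23 and -0.29 for KRT18, and 2 and 4 of the 135 were as low or lower. Over the 553 probe sets of like signal that are not _x_at ones the medians were -0.04 and -0.04, and 6 and 7 were as low or lower.

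For ORF against control the readings of the partners, from 1 probe set each, were not lower by the same factor. Set against KRT18, KRT8 was lower by a further 1.47-fold for ORF against control (difference of log2 ratios -0.55), 1.15-fold for shRNA against control (-0.21) and 1.27-fold for ORF against shRNA (-0.34). Noise SDs of KRT8 and KRT18 were 0.10 and 0.08 for the first comparison and 0.14 and 0.11 for shRNA against control. A noise SD of the difference was not computed, so the -0.21 is not read as unequal. In RefSeq's gene table KRT8 and KRT18 are direct protein-coding neighbours with overlapping spans on chromosome 12, and KRT18 is the single type I member there. The other type I members listed, KRT14, KRT17, KRT19 and KRT23, are on chromosome 17, and all 5 type II members are on chromosome 12.

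KRT7, the type II keratin of ducts, was bright and nearly level across the arrays. Its brightest probe set, 209016_s_at, read 13.33 on the array labelled ORF, 13.43 on shRNA and 13.35 on control, at ranks 813, 745 and 811. The log2 ratios were -0.02 for ORF against control, 0.08 for shRNA against control and -0.10 for ORF against shRNA, with noise SDs of 0.08, 0.11 and 0.07. The ORF against shRNA ratio was thus larger than its noise SD, but all 3 lay between the 5th and 95th percentile of 525 bright genes of like signal. The other 3 KRT7 probe sets were far dimmer. Probe set 214031_s_at read 6.57 on ORF and 6.56 on shRNA, against 6.05 on control, just above the floor, for log2 ratios to control of 0.52 and 0.51. Probe set 1558393_at read 6.31 and 6.44 against 6.24, and 1558394_s_at was below the floor on all arrays, at 0 on the array labelled ORF, 4.27 on shRNA and 4.91 on control. At the floor the noise SD was 0.38 for ORF against control and 0.36 for shRNA against control. The high KRT7 level thus rests on 1 of 4 probe sets, and the probe sets of KRT7 do not give 1 common ratio.

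KRT80, a type II keratin found in many epithelia and their tumours, was bright and the most even member. It read 10.61 on the array labelled ORF, 10.67 on shRNA and 10.68 on control, at ranks 6161, 5922 and 5899. Its 3 readings span 0.06, and the log2 ratios of -0.06, -0.01 and -0.06 for the 3 comparisons are each smaller than the noise SDs of 0.12, 0.17 and 0.15.

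**Figure D2:**
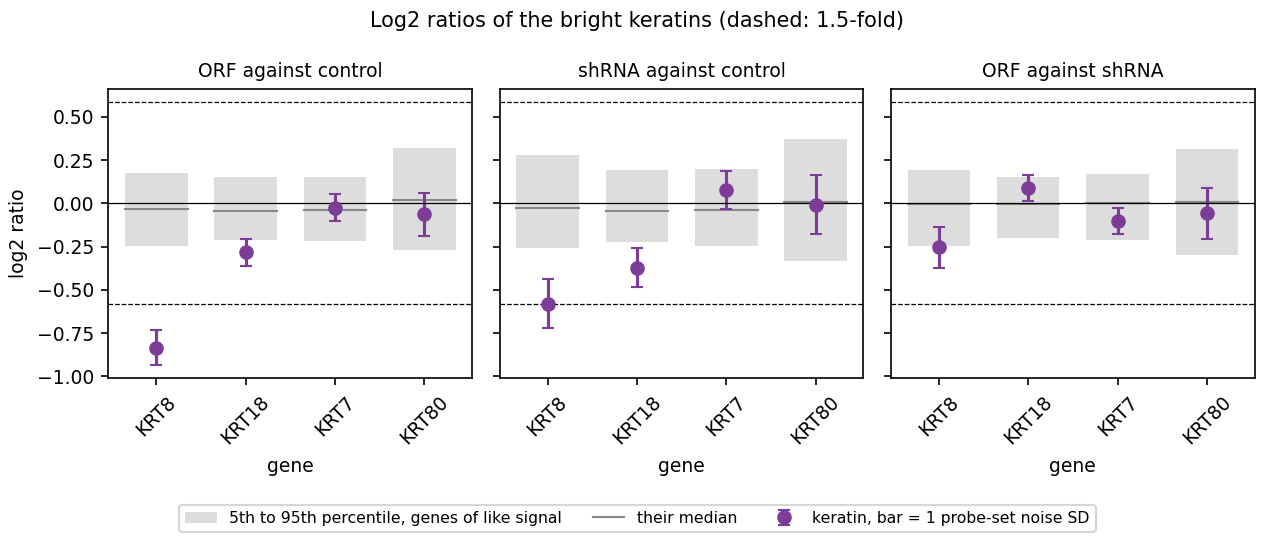
Log2 ratio (vertical axis) of the 4 bright keratins (horizontal axis) in the 3 comparisons, 1 panel each. Points are the keratins with bars of 1 probe-set noise SD, grey boxes span the 5th to 95th percentile of bright genes of like signal with their median as a line, and dashed lines mark 1.5-fold. KRT8 lies below its box in all 3 panels and below the 1.5-fold line only for ORF against control, and KRT18 lies below its box in both comparisons with control.

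At a threshold of 1.5-fold, KRT8 was the 1 keratin past it, for ORF against control. For that comparison 3.04% of the 12665 genes above the floor were higher by 1.5-fold or more and 2.82% were lower by as much, and of bright genes 1.31% and 0.926%. Of the 4 keratins above the floor, 0 were higher and 1 lower. For shRNA against control the shares over all genes above the floor were 3.59% higher and 3.30% lower, and of bright genes 1.82% and 1.41%, beside 0 of 4 keratins in each direction. For ORF against shRNA they were 2.64% and 2.68%, and of bright genes 1.06% and 0.953%, again beside 0 of 4 keratins. The median log2 ratio of the 4 keratins was -0.17, -0.19 and -0.08 in the 3 comparisons, against medians of 0, -0.01 and 0.01 over all genes above the floor. A median of 4 genes of which KRT8 and KRT18 are lower and KRT7 and KRT80 level says little about keratins in common.

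KRT19, the smallest keratin and a marker of bile ducts and of hepatic progenitor cells, had no reading above the floor. Probe set 228491_at read 2.76 on the array labelled ORF and 3.59 on the array labelled shRNA, against 0.81 on the array labelled control, and 201650_at read 0.73 and 0.84 against 1.79. Control was the lowest array by the first probe set and the highest by the second. KRT5, the basal type II keratin, read 4.50, 1.63 and 3.48 on the arrays labelled ORF, shRNA and control, and its type I partner KRT14 read 2.36, 2.31 and 1.82. KRT23, a type I keratin induced in some epithelial tumours, read 2.07, 0.99 and 3.93. The highest of these 15 readings stood at percentile 32.3 of its array. Values this far below the floor carry no usable order between arrays, so no ratio is given for KRT5, KRT14, KRT19 or KRT23.

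Promoter windows from RefSeq (build GRCh38.p14, 300 bases around a gene's start) were held for KRT8 and KRT5, and are shown because KRT8 is the bright keratin that differed most between the arrays and KRT5 is a type II gene of the same chromosome that was below the floor on all of them. Both lie on the minus strand, KRT8 at chr12:52926420-52926719 and KRT5 at chr12:52520345-52520644, and are written 5′ to 3′ in the direction of transcription, with capitals for matches, on either strand, to the 4 short motifs named after them.
KRT8: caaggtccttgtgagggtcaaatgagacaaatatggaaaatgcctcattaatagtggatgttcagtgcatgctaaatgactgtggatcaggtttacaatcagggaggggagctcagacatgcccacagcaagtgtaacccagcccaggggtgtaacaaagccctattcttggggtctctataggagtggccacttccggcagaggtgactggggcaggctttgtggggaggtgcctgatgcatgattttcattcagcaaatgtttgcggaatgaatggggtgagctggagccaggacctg
KRT5: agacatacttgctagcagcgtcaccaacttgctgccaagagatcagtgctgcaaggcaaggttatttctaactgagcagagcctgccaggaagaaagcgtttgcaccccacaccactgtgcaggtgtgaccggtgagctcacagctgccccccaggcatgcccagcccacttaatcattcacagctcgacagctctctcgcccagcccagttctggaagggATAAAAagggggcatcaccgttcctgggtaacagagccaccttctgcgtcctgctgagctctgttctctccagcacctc
The first motif searched was TATAAA, found in 4049 of all 35116 windows (11.5%). The next was ATAAAA, which can overlap it, found in 5616 (16.0%). The third was GGGCGG, found in 15786 windows, and the last was TGANTCA, found in 2707 (7.71%). The KRT5 window holds 1 match, ATAAAA on the sense strand, whose first base is 29 bases before the start site. The KRT8 window holds 0 matches. No match says only that these letters are not in this window. The KRT8 window holds 2 CG pairs and the KRT5 window 7, beside a median of 14. The KRT8 window starts 23391 bases inside the gene's RefSeq span, so it belongs to 1 of several annotated starts, and which start the cells used was not measured.

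The rest of the keratin family was dim. Of 45 further keratins listed, 36 had a probe set with 1 symbol, 31 of them were below the floor on all arrays and 1 was bright, KRT10, a type I keratin of cornified epidermal layers. KRT10 read 12.04 on the array labelled ORF, 12.30 on shRNA and 12.17 on control by its brightest probe set, for log2 ratios of -0.12, 0.13 and -0.25 in the 3 comparisons. Its other 2 probe sets gave -0.41 and 0.01 for ORF against control, and -0.08 and 0.24 for shRNA against control. Its direction against control is thus not settled on ORF or on shRNA. KRT1, the type II partner of KRT10 in epidermis, read at most 3.12. Of the other keratins that were not bright, the highest single reading was 6.56, for KRT16, a stress keratin, on shRNA, against 4.76 on control. After flooring its log2 ratio for shRNA against control was 0.63, past 1.5-fold, with a noise SD of 0.36. Its ORF and control readings were below the floor and shRNA was near it. KRT9 and KRT78, further epidermal keratins, were at or above the floor with at most 6.52 and 6.31. None of the 2 further simple keratins, 6 mucosal and corneal keratins and 7 root sheath keratins measured was above the floor on any array, nor were 11 of 12 hair keratins.

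**Figure D3:**
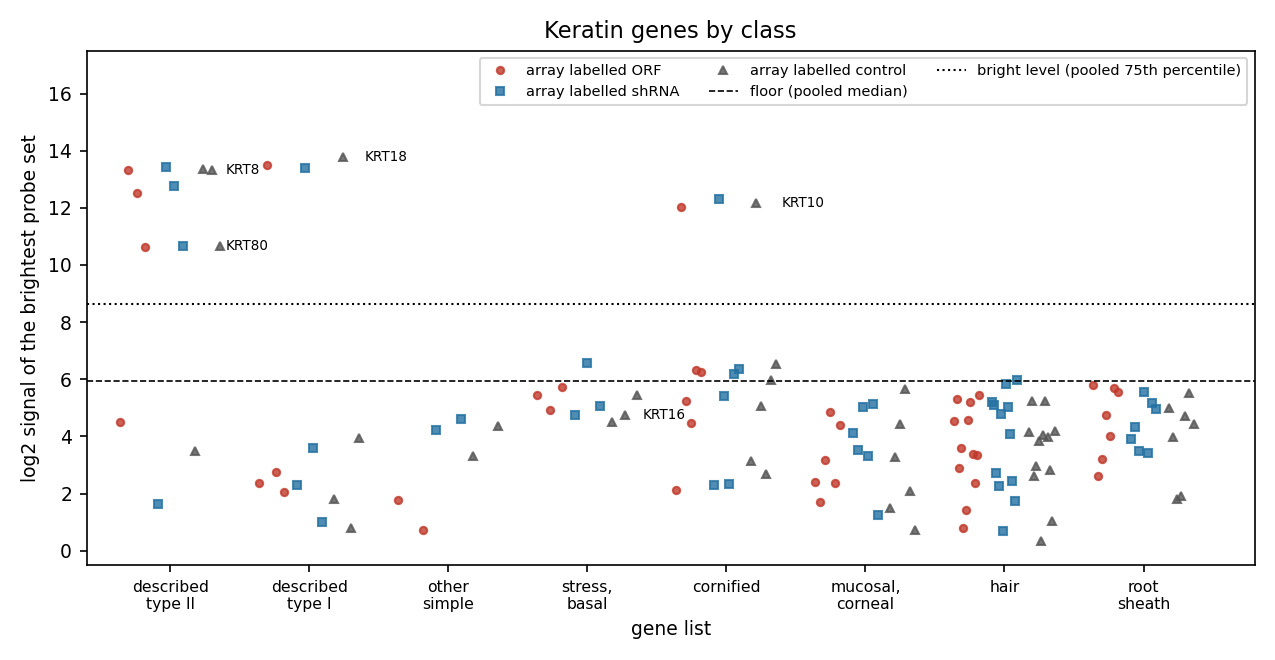
Log2 signal (vertical axis) of the brightest probe set of each named keratin, grouped by class (horizontal axis), with the arrays labelled ORF, shRNA and control side by side as circles, squares and triangles. Of 44 keratins, 5 (KRT7, KRT8, KRT18, KRT80 and KRT10) are above the dotted bright level of 8.63 on every array, and most others are below the dashed floor of 5.93.

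Other intermediate filament genes were bright beside the keratins. VIM (vimentin, the filament of mesenchymal cells and of many cultured tumour lines) read 13.78, 13.80 and 13.78 on the arrays labelled ORF, shRNA and control, with ratios of 0.00 and 0.03 to control. Of 15 such genes 7 were bright on all arrays, beside 38.2% of all genes. Nuclear lamins were among them, with LMNA at 11.92 and 11.82 against 12.17 on control and LMNB1 at 12.10 and 12.04 against 11.86. By brightest probe sets INA, a neuronal filament protein, was the 1 gene of this list past 1.5-fold against control. It read 9.34 on ORF and 9.33 on shRNA against 8.59 on control (log2 ratios 0.76 and 0.74, noise SDs 0.20 and 0.26). That is 1 of 10 genes above the floor, beside 3.04% of all genes above the floor higher on ORF and 3.59% on shRNA. A count of 1 does not set the list apart. The list's median ratios were 0.02 and -0.05, against 0 and -0.01 over all genes above the floor.

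Desmosome and linker genes, whose proteins anchor keratin filaments at cell contacts, were mostly bright. Of 18 measured, 11 were bright on all arrays, beside 38.2% of all genes, and 12 were above the floor. Of these 12, 0 were past 1.5-fold in any of the 3 comparisons. Of all genes above the floor 2.64% to 3.59% were past it in either single direction, so 0 of 12 does not set the list apart. Not all of these genes were level. Against control PPL gave log2 ratios of -0.51 on ORF and -0.41 on shRNA, PKP3 -0.49 and -0.45, and PKP2 0.16 and 0.53. Their noise SDs ran from 0.15 to 0.26. DSP (desmoplakin) read 12.45 and 12.64 on the arrays labelled ORF and shRNA against 12.59 on control. DSG2 (desmoglein 2) read 12.40 and 12.24 against 12.47, JUP (plakoglobin) 11.98 and 11.78 against 11.96, and FAM83H, which binds keratin filaments, 12.44 and 12.39 against 12.28. The desmosomal cadherins of stratified layers, DSG1, DSG3, DSC1 and DSC3, were below the floor on every array, as were DSC2 and PKP1. Median ratios were -0.03 and -0.04 against control.

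Of 12 transcription factors of epithelial cells, 5 were bright on all arrays: TFAP2A, KLF5, ELF3, KLF4 and TFAP2C. KLF5, a factor of proliferating epithelia, read 11.47 and 11.32 on the arrays labelled ORF and shRNA against 11.05 on control. TFAP2C, an AP-2 factor, read 8.72 and 8.86 against 9.45 (log2 ratios -0.73 and -0.59), so it was past 1.5-fold in both comparisons with control and in the direction of KRT8. EHF, an ETS factor of epithelia, read 8.83 on ORF, 7.38 on shRNA and 8.46 on control (0.37 and -1.08). GRHL2, OVOL2 and ESRP1, which maintain the epithelial state, were below the floor on all arrays. Of the 8 above the floor, 0 were higher and 1 lower past 1.5-fold for ORF against control, and 0 and 2 for shRNA against control, beside 2.82% and 3.30% of all genes above the floor lower in these comparisons. Counts this small do not set the list apart from all genes. Its median ratios were 0.04 and -0.15.

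Marker genes of the other cell types that could carry these keratins were mixed, and the counts of bright markers are to be read beside the 38.2% of all genes bright on all arrays. Of 9 bile duct markers, 3 were bright on all arrays: ANXA4 at 11.19 and 11.12 on the arrays labelled ORF and shRNA against 11.13 on control, MUC1 at 10.85 and 10.56 against 10.80, and EPCAM at 10.47 and 10.43 against 10.38. The duct markers SOX9, CFTR, AQP1, SPP1 and PROM1 were below the floor on all arrays. Of 9 columnar epithelium markers 3 were bright, and CDH1 (E-cadherin) read 5.26 and 5.17 against 6.37 on control. The ORF and shRNA readings of CDH1 were below the floor and control was just above it. After flooring both log2 ratios were -0.45, short of 1.5-fold, with noise SDs of 0.38 and 0.36. CD24, a surface glycoprotein of the same list, read 12.56 and 12.79 against 13.18 (log2 ratios -0.62 and -0.38), the same order over the arrays as KRT8. This is the brightest of 6 CD24 probe sets and an _x_at one, and the others were not compared. Of 10 stratified basal markers 6 were bright, led by SFN (14-3-3 sigma) at 13.98 and 13.80 against 14.17, PERP at 13.81 and 13.75 against 13.87, TRIM29 at 11.90 and 12.11 against 12.46 and S100A2 at 11.47 and 11.07 against 11.14, while DSG3 and CDH3 were below the floor. Of 13 fibroblast markers 3 were bright, LUM, COL1A1 and DCN, and of 10 leukocyte markers none was bright. Against control, 1 columnar marker (CD24) was lower past 1.5-fold on ORF, 1 basal marker (SERPINB5) was higher on shRNA, and 0 bile duct or hepatocyte markers were past it on either. Of the fibroblast markers COL5A2 was lower on both, DCN lower on shRNA and COL1A1 higher on shRNA, and of the leukocyte markers CD3E was higher on ORF. SERPINB5 (6.84 on shRNA against 6.02 on control) and CD3E (6.72 on ORF against 4.69 on control) were near or below the floor. Noise SDs there were 0.36 and 0.38. Over all genes above the floor, 3.04% were higher and 2.82% lower on ORF, and 3.59% higher and 3.30% lower on shRNA.

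**Figure D4:**
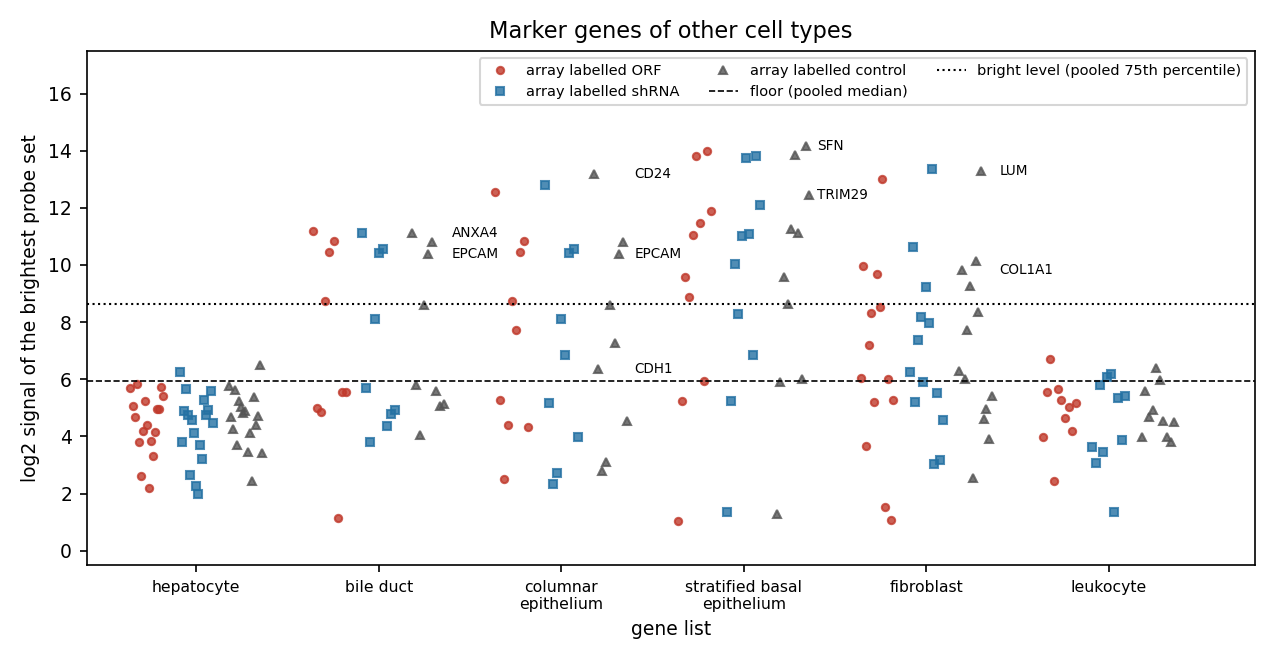
Log2 signal (vertical axis) of the brightest probe set of each marker gene in 6 lists of cell type markers (horizontal axis), with the arrays labelled ORF, shRNA and control side by side as circles, squares and triangles. No hepatocyte or leukocyte marker reaches the dotted bright level of 8.63, and 6 of 10 stratified basal markers are above it on every array.

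Summed over each list, linear signals were 40628 and 38212 on the arrays labelled ORF and shRNA against 45007 on control for stratified basal markers, 10016 and 10447 against 13029 for columnar markers, and 6174 and 5534 against 5933 for bile duct markers. They were 470 and 442 against 515 for hepatocyte markers and 11206 and 13610 against 13525 for fibroblast markers. The stratified basal and columnar sums were thus highest on control. The columnar order rests on CD24: without it the sum was 3983 on ORF and 3345 on shRNA against 3773 on control, and the list's median log2 ratio for ORF against control was 0.07. Without SFN the stratified basal sum was 24483 and 23904 against 26580, still highest on control. That sum keeps TRIM29, which was 1.48-fold lower on ORF and 1.28-fold lower on shRNA than on control. A sum without both genes was not taken. Without TF (transferrin) the hepatocyte sum was 416 and 394 against 424. Of the 17 hepatocyte markers 15 were below the floor on all arrays, so their sums carry no usable order between arrays. No marker of these lists was at 0 on all arrays. A change in the mix of cells and a change in RNA per cell cannot be told apart in these bulk samples, and the part of either in the KRT8 and KRT18 values was not tested.

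The genes whose 3 readings followed those of KRT8 most closely, among 8181 genes bright on at least 1 array, were FABP3, CLTRN, SH3BP5, TFAP2C and RAD54L2. Likeness was the Euclidean distance between the log2 readings after each gene's own mean was taken off, and it ran from 0.06 for FABP3 to 0.10 for RAD54L2. FABP3, a fatty acid binding protein, read 11.30 on the array labelled ORF and 11.46 on the array labelled shRNA against 12.08 on control. With 3 points per gene, many genes can match any pattern closely, so this list is a description only.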

How the data were processed

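RNA from 3 cultures was measured on 3 arrays, 1 per transfection label, and samples were grouped by that label. The authors deposited a log2 signal for each probe set, and MAS5 is the tool in the submitters' processing notes. Its version, scaling target and detection calls were not given in the sources used here. The log2 scale was read from the values, which gave a 2% trimmed mean linear signal of 500.1 on each array.

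In GEO's platform annotation 41097 probe sets had 1 gene symbol, 1801 several and 11777 none, and those without exactly 1 were left out. RefSeq symbols (GRCh38.p14) matched 41043 and updated 0. Arrays were scaled to 1 trimmed mean. For ratios, signals were floored at the pooled median (5.93), so ratios near the floor understate differences. Each gene was represented by its brightest probe set. A noise SD came from 6313 probe-set pairs within genes, in 20 bins of signal.

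Keratins and lists were chosen with earlier results of these data known. Named genes were drawn from all members and, per list, up to 6 genes that were bright on all arrays, or past 1.5-fold with a bright array, by mean signal. Cell type defining markers were also named, and names given for genes not bright on any array were chosen after their values were seen. Alternatives were quantile normalization, loess centring, equal medians, no floor, a higher floor, the median over probe sets, leaving out _x_at and _s_at probe sets, a 2-fold threshold and a bright level at the 90th percentile. The procedure was tested on simulated data. No p-value is given, since 3 arrays without replicates limit the precision. Python 3.11.15, pandas 2.3.3, statsmodels 0.14.6, and R 4.3.3 with limma 3.58.1 were used.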

Additional observations from a re-analysis of the deposited data

How the results depend on the processing

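Of 84 recomputed log2 ratios of KRT7, KRT8, KRT18 and KRT80, 80 moved by no more than the noise SD, 4 moved by more, and KRT8 for ORF against control, the 1 ratio past 1.5-fold, kept its sign. All 4 were KRT7 against control, with the median over its probe sets (0.29 for ORF and 0.36 for shRNA) or without _x_at and _s_at probe sets (0.07 and 0.21), where its dim probe sets stand in. Many of the 80 could not move and say nothing about robustness. All 4 keratins lie above both floors, so neither floor setting could change them. KRT8, KRT18 and KRT80 have 1 probe set each, so the median over probe sets returned the main value. Leaving out _x_at and _s_at probe sets could not change KRT80 either. KRT8 ran from -0.86 to -0.80 for ORF against control and from -0.58 to -0.54 for shRNA against control, and KRT18 from -0.30 to -0.22 and from -0.38 to -0.29. Subtracting the median of _x_at probe sets was chosen after seeing the data. Without a floor, 4 keratins were past 1.5-fold for ORF against control, 3 for shRNA against control and 3 for ORF against shRNA, since keratins below the floor then count. Without _x_at and _s_at probe sets, 0 keratins were past 1.5-fold for ORF against control and 1, KRT80, was bright on all arrays. KRT8 and KRT18 then have no probe set, and KRT7 keeps only the dim 1558393_at, at 6.24 to 6.44. At 2-fold, 0 keratins were past the threshold for ORF against control. The count of keratins bright on all arrays was 3 with the median over probe sets, where KRT7 drops out. It was also 3 with the bright level at the 90th percentile, where KRT80 drops out. No scaling moved the median of all genes by over 0.1. No paired analysis was possible because each group had 1 array. Signals near the floor limit KRT5, KRT14, KRT19, KRT23 and 3 of the 4 KRT7 probe sets.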

Other observations

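Probe sets for keratin relatives outside the comparisons were read as values. KRT10-AS1, annotated as an antisense gene of KRT10, was bright, at 9.63 on the array labelled ORF and 9.67 on the array labelled shRNA against 9.80 on the array labelled control. KRT17P5, a pseudogene of KRT17, read 6.18 and 6.41 against 5.77. KRT19P2, a pseudogene of KRT19, read 5.12 and 5.30 against 5.23, below the floor like KRT19 itself.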
